A study of Callithrix jacchus with 4 samples.

Results

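Messenger RNAs of mitochondrial ribosomal proteins were followed in the substantia nigra of the common marmoset after the neurotoxin MPTP. The genes were taken by symbol: MRPL for the large or MRPS for the small ribosomal subunit, followed by a number and in 3 cases a letter, with symbols containing a hyphen left out. 76 of 18014 genes with a gene symbol on the array qualified, 48 of the large and 28 of the small subunit. They were read by 107 array features, with 1 feature for 51 genes, 2 for 20, 3 for 4 and 4 for MRPL43. One further symbol of this kind, the pseudogene MRPL42P5, encodes no protein and was kept apart.

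The study used 5 male common marmosets, 3 years old. 1 was given vehicle, and the other 4 were each injected once with MPTP (2.5 mg/kg, intravenous). 1 MPTP animal was killed under pentobarbital at each time, the earliest 2 h and the latest 14 days after the injection, with 6 h and 1 day between. A strip of the pars compacta on one side was laser-captured, and its RNA was amplified in 2 rounds. Each MPTP sample (Cy5) was hybridised together with the same vehicle sample (Cy3) to 1 array designed for human genes, with no dye swap. Marmoset RNA was therefore read by human probes. The strip was captured as tissue and not sorted by cell type, so fewer cells of a type and less RNA per cell cannot be told apart.

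Mitochondria carry their own ribosome, the mitoribosome, which translates the few messages encoded by mitochondrial DNA. All of these messages encode core subunits of the respiratory chain and of ATP synthase, including subunits of complex I, the enzyme that the MPTP metabolite MPP+ blocks. The ribosomal RNA comes from mitochondrial DNA, while every protein of the mitoribosome is encoded in the nucleus and imported. Some of these proteins have bacterial homologues, and others are specific to mitochondria. The classes used below follow the uniform ribosomal protein names, which count MRPS18A and MRPS18B as specific to mitochondria although both are related to bacterial S18. The large subunit joins amino acids and leads the new chain out through a tunnel at the inner membrane, and the small subunit binds and decodes the message.

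Values below are log2 ratios of MPTP over vehicle, as the median over the features of a gene, after each array was centred on its median feature. The deposited table states neither scale nor direction. Both were inferred here, the scale from the values and the direction from the labelled dyes, and the opposite direction would turn every sign. There was 1 animal per time and 1 vehicle animal for all times, so no difference was tested and no p-value is given. Differences are described beside all genes of the same array, with 2-fold (a log2 ratio of 1 in size) as the mark for a gene called higher or lower. The 4 arrays share the vehicle sample, so a deviation of that sample appears on each of them. Where a gene has an SD, it describes the spread of its features.

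The mitoribosomal genes as a group stayed close to the vehicle level at every time. From 2 h through 14 days their median was −0.07, 0.09, 0.12 and −0.01, against 0.03, 0.03, 0.02 and 0.01 for all genes. Single genes went both ways. At 2 h, 6 of the 76 were at least 2-fold higher and 9 at least 2-fold lower, where the shares of all genes were 5.47% higher and 7.22% lower. At 6 h, 2 were higher and 1 was lower, beside 3.37% and 3.89% of all genes. The count at 1 day was 3 higher and none lower (2.27% and 1.67% of all genes), and at 14 days 1 higher and none lower (2.16% and 2.12%). Past 2-fold on 1 or more arrays were 16 members (21.1%), close to the 20.5% of all genes. All 16 are named below, and the other 60 lay between −0.97 and 0.76 at 2 h, −0.64 and 0.89 at 6 h, −0.44 and 0.60 at 1 day, and −0.51 and 0.63 at 14 days.

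**Figure D1:**
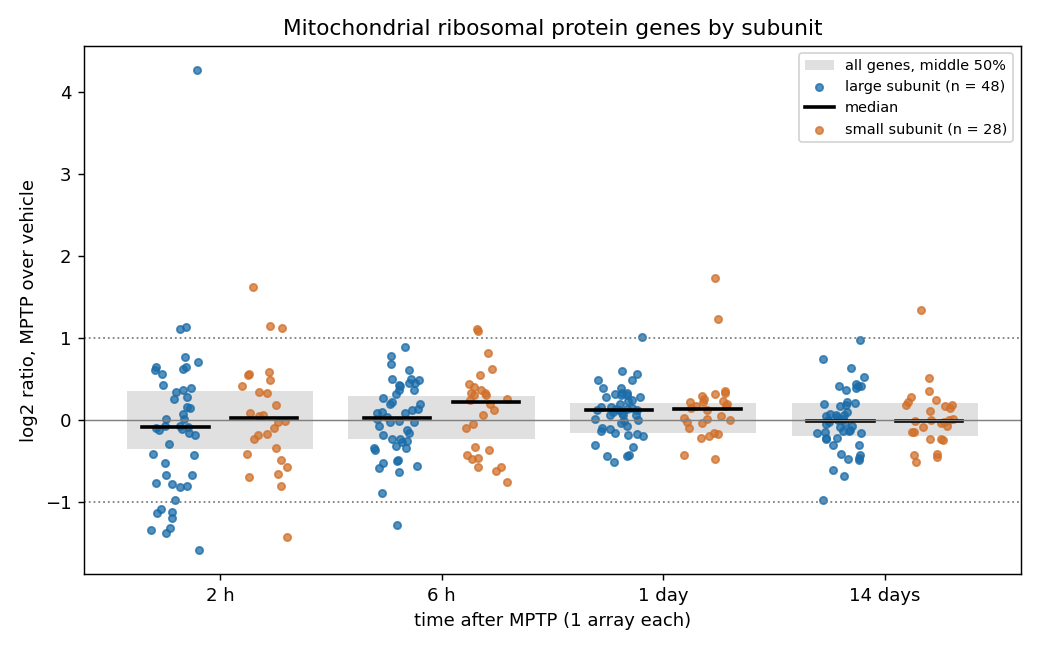
Log2 ratio of MPTP over vehicle (vertical axis) for each mitoribosomal gene on the array of each time (horizontal axis), with large-subunit genes in blue (n = 48) and small-subunit genes in orange (n = 28). Black bars are medians, grey boxes hold the middle 50% of all genes and dotted lines mark 2-fold. The medians stay within 0.22 of 0, and the points spread most at 2 h, where MRPL44 reaches 4.26.

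The spread among members was widest in the earliest sample. The distance between the quartiles was 0.98, 0.70, 0.38 and 0.40 in time order, against 0.71, 0.52, 0.36 and 0.41 for all genes. By this measure the members spread more than all genes at 2 h and 6 h, and about as much at 1 day and 14 days. The SD across genes, which extreme values weigh on, gave another order after 2 h: 0.85, 0.47, 0.35 and 0.37 for the members against 0.71, 0.57, 0.48 and 0.47 for all genes, so that by SD the members were wider at 2 h and narrower later. Complex I subunits had distances of 1.17 and 0.81 at 2 h and 6 h over 36 genes, and cytosolic ribosomal proteins 0.89 and 0.63 over 71 genes, so both lists also had a wider quartile distance than all genes at these times.

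Within the large subunit, MRPL32 and MRPL33, which have bacterial homologues, lay the farthest below vehicle at 2 h. MRPL33, homologue of bacterial L33, lay at −1.38 ± 0.05 (SD, 2 features), −1.28 ± 0.09, −0.42 ± 0.04 and −0.68 ± 0.11 in time order. Both of its features lay below 0 on all 4 arrays, and it alone among members was at least 2-fold lower at 6 h. MRPL32, a zinc-binding protein that must be cut by the inner-membrane m-AAA protease before it joins the ribosome, lay at −1.59, −0.89, −0.44 and −0.47 with 1 feature. It had the lowest 2 h value of the 76.

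Other large-subunit genes with bacterial homologues were at least 2-fold lower at 2 h and not later. MRPL19 lay at −1.32, −0.52, 0.39 and −0.97 from 2 h to 14 days, so that the 1 day sample stood above vehicle between lower ones. MRPL18, whose bacterial homologue binds the 5S ribosomal RNA, lay at −1.14, −0.25, 0.06 and −0.47. MRPL14, the docking site of the anti-association factor MALSU1, lay at −1.12 at 2 h and between −0.13 and 0.16 afterwards. The 3 genes had 1 feature each.

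MRPL20, whose bacterial homologue is needed early in assembly of the large subunit, had its 2 features close together at 2 h and far apart later. One read −1.15, −0.47, 0.05 and 0.06 in time order, and the other −1.23, 0.22, 0.52 and 1.88. The high 14-day median of 0.97 therefore rested on 1 feature. MRPL30 had a median of −1.34 at 2 h, but its 2 features read 0.59 and −3.27, so their median describes neither. Both features of MRPL30 were within 2-fold of vehicle at 6 h (−0.12 and −0.36) and 14 days (−0.03 and −0.58). At 1 day they parted again, at 0.07 and −1.09.

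Above vehicle among the bacterial-type large-subunit genes were MRPL4 and MRPL36 at 2 h. MRPL4, whose bacterial homologue lines the exit tunnel, lay at 1.13, 0.36, −0.09 and 0.74. MRPL36, the homologue of a small zinc-binding bacterial protein, lay at 1.11, −0.01, 0.48 and −0.61 and so ended below vehicle. MRPL23 and MRPL28 stayed above 0 on all 4 arrays. MRPL23, a protein at the tunnel exit, lay at 0.71, 0.68, 0.48 and 0.63, and MRPL28 at 0.76, 0.89, 0.29 and 0.10.

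The stalk of the large subunit recruits translation factors. MRPL10, which anchors the stalk, had 2 features at 0.42 ± 0.13 (SD, 2 features) at 2 h and 0.10, 0.32 and 0.06 afterwards. MRPL12, the stalk protein itself, lay at −0.07, 0.45, 0.00 and −0.49 with 1 feature. MRPL11 at the stalk base lay at 0.15, 0.26, 0.31 and 0.08. None of the 3 reached 2-fold at any time.

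Among further large-subunit genes with agreeing features at 2 h and 6 h, MRPL2 lay at 0.34 ± 0.39 (SD, 2 features), 0.43 ± 0.50, 0.25 ± 0.12 and 0.22 ± 0.38. MRPL3 lay at −0.52 ± 0.09 (SD, 2 features), −0.49 ± 0.20, −0.07 ± 0.19 and −0.13 ± 0.14. The features of MRPL2 all lay above 0 at 2 h and 6 h and those of MRPL3 all below. MRPL15 lay at −0.97 at 2 h, just inside 2-fold, and at −0.50, 0.38 and 0.19 later. MRPL13 stayed below 0 throughout, at −0.77, −0.59, −0.20 and −0.23.

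Of the 18 large-subunit genes classed as specific to mitochondria, MRPL44 had the highest value. MRPL44, a protein with a fold related to ribonuclease III, lay at 4.26 at 2 h, 0.78 at 6 h and 1.02 at 1 day with its only feature. Its 14-day value was listed as exactly 0, so no ratio can be read there. MRPL45, which ties the tunnel exit to the inner membrane, lay at −1.09 ± 0.59 (SD, 2 features) at 2 h and at −0.55, −0.31 and −0.03 later. Both features of MRPL45 were below 0 at 2 h and 6 h, and they lay on opposite sides of 0 at 1 day and 14 days. The other 16 genes of this class were within 2-fold on all arrays, among them MRPL41 at 0.64, 0.61, −0.18 and 0.41 and MRPL58, a hydrolase that frees stalled ribosomes, at −0.43, −0.16, 0.14 and 0.18.

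In the small subunit, MRPS17 was the one member at least 2-fold above vehicle on all 4 arrays. This homologue of bacterial S17 lay at 1.12, 1.11, 1.73 and 1.34 from 2 h to 14 days, with 1 feature and the same vehicle sample behind each value. MRPS5, whose bacterial homologue sits where the message enters, lay at −0.03 at 2 h, 1.08 at 6 h and 1.22 at 1 day. Its 14-day value was listed as exactly 0. MRPS2 read 1.14, 0.06, −0.02 and 0.19, so only its first sample was high. MRPS31, a small-subunit protein classed as specific to mitochondria, lay below vehicle on each array at −1.42, −0.76, −0.47 and −0.41. It was the only MRPS gene at least 2-fold lower at 2 h.

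The 3 paralogues of bacterial S18 differed at 2 h. MRPS18A lay at 1.62, 0.62, 0.30 and 0.29, above 0 on all 4 arrays. MRPS18B lay at −0.18, 0.19, −0.22 and −0.14, and MRPS18C at 0.04, −0.42, −0.17 and −0.02. Only MRPS18A passed 2-fold, and only at 2 h, and each of the 3 had 1 feature. MRPS18A and MRPS30 carry small-subunit symbols but sit in the large subunit in structures of the mammalian mitoribosome. MRPS30 lay at 0.55, 0.33, −0.03 and 0.35.

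Several other small-subunit genes were within 2-fold as medians. MRPS12, the decoding-centre protein whose bacterial homologue carries streptomycin resistance, lay at 0.07, 0.33, 0.02 and 0.15. Its 2 features read −0.20 and 0.86 at 6 h, a gap wider than any of its medians. MRPS15 lay at −0.10, 0.30, 0.33 and 0.18. MRPS21 had 2 features within 0.13 of each other on every array, at 0.56 ± 0.05 (SD, 2 features), 0.55 ± 0.04, 0.35 ± 0.02 and 0.12 ± 0.09. MRPS6 lay at −0.65 ± 0.86 (SD, 2 features), −0.48 ± 0.36, −0.42 ± 0.28 and −0.51 ± 0.09, with both features below 0 on all 4 arrays. MRPS10 had 3 features, all below 0 at 2 h, 6 h and 14 days, with medians of −0.80, −0.57 and −0.43.

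**Figure D2:**
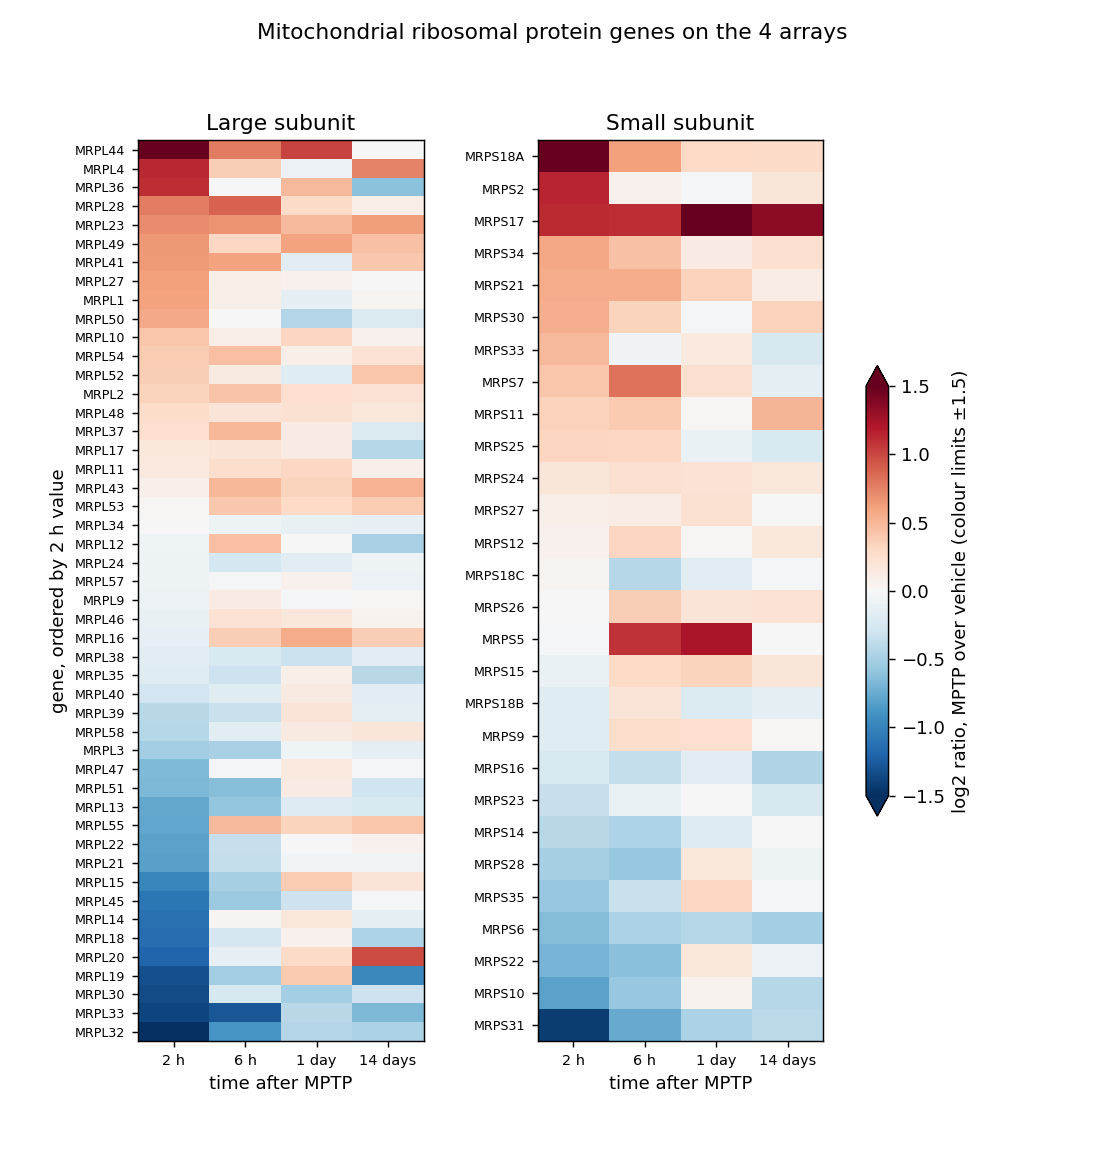
Log2 ratio of MPTP over vehicle for each of the 76 genes (rows, ordered by the 2 h value within each subunit) on each array (columns), red above and blue below vehicle, with colours capped at 1.5 in size. Strong colours gather in the 2 h column, from MRPL44 at 4.26 to MRPL32 at −1.59, and the 1 day column is mostly pale red.

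The large and small subunits had similar medians at each time. Those of the large subunit were −0.09, 0.02, 0.12 and −0.01 from 2 h to 14 days, and those of the small subunit 0.02, 0.22, 0.13 and −0.01. Large minus small gave −0.11, −0.19, −0.01 and −0.01. The 6 h difference, the widest of the 4, was −0.09 when MRPS18A and MRPS30 were counted with the large subunit. At 2 h, 8 of 48 large-subunit genes (16.7%) and 1 of 28 small-subunit genes (3.57%) were at least 2-fold lower, and 3 of each were at least 2-fold higher. The shares of all genes on that array were 7.22% lower and 5.47% higher. With the arrays scaled to one spread, 1 member in all was at least 2-fold lower at 2 h. The contrast in these counts was seen in the data and has no test.

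Of the 9 genes at least 2-fold lower at 2 h, 7 have bacterial homologues and belong to the large subunit. They are 23.3% of the 30 genes of that class, beside 7.22% of all genes, and include MRPL30, whose 2 features disagreed. The other 2 were 1 of 18 large-subunit and 1 of 12 small-subunit genes classed as specific to mitochondria. These counts were noticed in the data and have no test. The 30 large-subunit genes with a bacterial homologue had medians of −0.16, −0.02, 0.08 and −0.04 in time order. The 18 large-subunit genes classed as specific to mitochondria had medians of 0.05, 0.17, 0.13 and 0.03, higher by less than the quartile distance of either class. In the small subunit the 16 genes with a homologue had medians of 0.01, 0.25, 0.11 and 0.01, and the 12 classed as specific to mitochondria, MRPS18A and MRPS18B among them, had 0.04, 0.15, 0.13 and −0.06.

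Most members stood slightly above vehicle in the 1 day sample. There, 51 of 76 (67.1%) lay above 0, where 52.3% of all genes did, and the shares were alike in the large subunit (32 of 48) and the small (19 of 28). Below 0 at 1 day were 25, beside 47.7% of all genes. At 2 h, 35 members lay above 0 and 41 below (52.1% and 47.9% of all genes). At 6 h the counts were 42 and 34 (53.2% and 46.8%), and at 14 days 35 and 39 (51.3% and 45.1%). Complex I subunits had a like count at 1 day, with 29 of 36 above 0 and a median of 0.12. Cytosolic ribosomal proteins had 36 of 71 above 0 at 1 day and a median of 0.00.

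A group of 13 members lay below 0 at 2 h, 6 h and 14 days and above 0 at 1 day, 17.1% of the 76 against 5.15% of all genes. These were MRPL18, MRPL19, MRPL35, MRPL39, MRPL40, MRPL47, MRPL51, MRPL57, MRPS10, MRPS22, MRPS23, MRPS28 and MRPS35. MRPL19 was named above, and the 1 day values of the 13 reached at most 0.39, so each is small. Some sides rest on values close to 0, as for MRPS23 at 1 day (0.0055) and MRPL47 at 6 h and 14 days (−0.026 and −0.034). MRPL35, MRPL57 and MRPS10 each had features on both sides of 0 at some time. The pattern was noticed in the data, and 1 animal stood behind each time.

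On all 4 arrays, 18 members (23.7%) lay above 0 and 13 (17.1%) below, close to the 23.5% and 18.5% of all genes. Apart from MRPS17, those above with the largest smallest value were MRPL23 (0.48), MRPL49 (0.31), MRPS18A (0.29), MRPL2 (0.22) and MRPL48 (0.18). Those below were led by MRPL32, MRPL33, MRPS6, MRPS31, MRPL30 and MRPL13, whose value nearest 0 was −0.44, −0.42, −0.42, −0.41, −0.24 and −0.20. These sides are those of medians over features. A feature of MRPL30 lay above 0 at 2 h (0.59) and 1 day (0.07). A feature of MRPL49 lay below 0 at 2 h (−0.24), 1 day (−0.09) and 14 days (−0.16), and a feature of MRPL2 at 14 days (−0.05). Without the 1 day array the count below 0 rose from 13 to 26 (34.2%, against 23.7% of all genes). The 13 added are the group listed above, so the rise repeats that pattern and is no separate observation. Without the 2 h, 6 h or 14-day array the count was 15, 14 or 13. These were 19.7%, 18.4% and 17.1%, against 22.4%, 22.7% and 24.0% of all genes.

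Differences between times do not contain the vehicle level, since it is shared. From 2 h to 6 h the median change of the members was 0.09, with 48 members above 0 (50.6% of all genes) and 28 below (49.4%). In this step there were 5 members at least 2-fold higher (4.90% of all genes) and 4 lower (3.98%). From 6 h to 1 day the median change was 0.07, with 42 members above 0 (47.3% of all genes) and 34 below (52.7%). No member differed by 2-fold between these samples, beside 3.59% of all genes higher and 2.69% lower. From 1 day to 14 days it was −0.08, with 48 of 76 (63.2%) below 0 where 49.7% of all genes were, and 28 above (50.3%). In this last step 4 members were at least 2-fold lower (2.53% of all genes) and none higher (2.26%). The changes of MRPL44 (−1.02) and MRPS5 (−1.22) in it rest on the 14-day values listed as exactly 0, and the other 2 were MRPL19 at −1.36 and MRPL36 at −1.10.

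Taking the mean of 1 day and 14 days minus the mean of 2 h and 6 h, the median over the members was 0.05, with 42 above 0 (49.3% of all genes) and 34 below (50.7%). MRPL20 (1.29) and MRPL15 (1.02) were at least 2-fold higher in the later samples (2.01% of all genes), followed by MRPL33 (0.78), MRPL32 (0.78) and MRPS22 (0.70). MRPL44 (−2.01) was at least 2-fold lower (1.67% of all genes), followed by MRPS18A (−0.83), MRPL28 (−0.63), MRPL36 (−0.62) and MRPL50 (−0.61). The value of MRPL20 includes the 14-day array, where its features parted, and that of MRPL44 the 14-day value listed as exactly 0. The 9 genes at least 2-fold lower at 2 h were chosen by that value, and had a median of −1.32 at 2 h and of −0.52, −0.31 and −0.41 later.

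Features of the same gene are the only repeat measurements here. For the 25 members with 2 or more features, the median gap between the highest and lowest feature was 0.53, 0.36, 0.34 and 0.39 in time order. Over the 7411 genes with 2 or more features it was 0.72, 0.55, 0.43 and 0.45. These gaps exceed every median given above for the members or a subunit. At 2 h all features lay above 0 for 5 of the 25 and below 0 for 8, beside 24.1% and 23.4% of all such genes, and at 12 they lay on both sides. The counts above and below were 8 and 9 at 6 h (25.1% and 24.3%), 8 and 5 at 1 day (22.3% and 21.8%), and 8 and 7 at 14 days (21.5% and 18.7%).

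Some features of a gene were designed on different transcript records, and in MRPS11 the feature of another record was the lowest on every array. MRPS11 had 3 features, of which 1 was designed on a separate cDNA record and lay at −1.19, −1.11, −0.68 and −1.15. The other 2 features of MRPS11, from 1 reference transcript, read 0.36, 0.75, 0.77 and 0.68 for one and 0.34, 0.40, 0.01 and 0.51 for the other. In MRPL43, the 2 features of one transcript lay at 0.79 and 1.06 at 6 h, and those of the 2 other transcript variants at −0.03 and 0.21. At 2 h the first 2 of MRPL43 lay at −0.32 and 0.22 and the others at 0.35 and −0.07, so the records did not part there. MRPL35 read −0.19 and −0.21 at 2 h with the 2 features of one variant and 0.51 with that of another. The cause of these gaps was not tested.

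Other gaps arose among features of a single transcript record. MRPL49 had 3 features at −0.09, 4.65 and 0.60 at 1 day, and the same feature was the highest on the other arrays too, at 1.17, 0.61 and 1.37. Its medians of 0.65, 0.31, 0.60 and 0.44 are those of the middle feature. MRPL50 had features at 0.12 and 1.01 at 2 h, and at 0.60 and −0.59 at 6 h, in this case from 2 records.

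**Figure D3:**
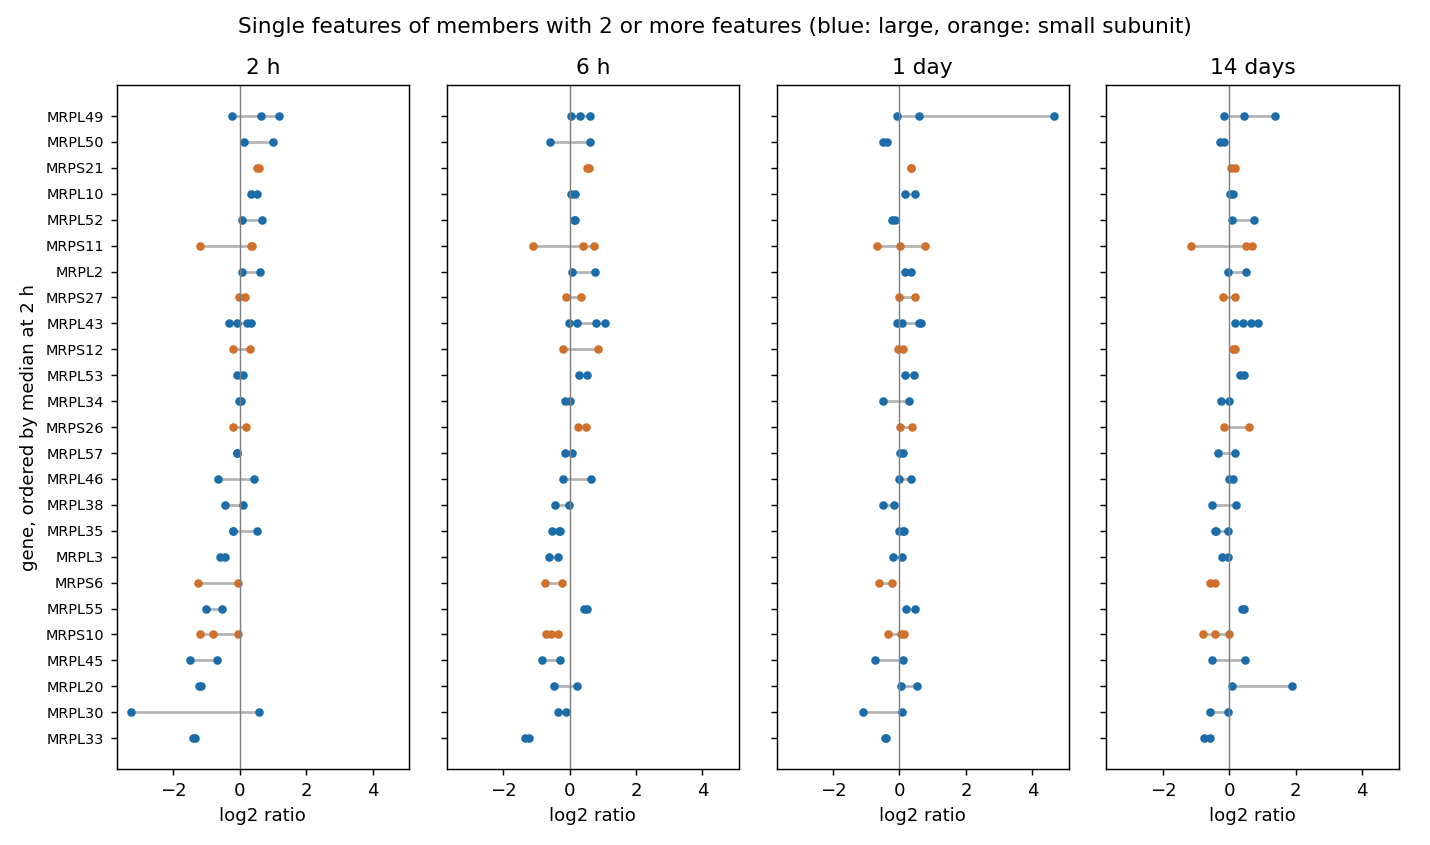
Log2 ratio of each feature (points) of the 25 members with 2 or more features (rows, ordered by the 2 h median), with 1 panel per array and a grey line joining the features of a gene. MRPL33 and MRPS21 have tight features on every array, while MRPL30 at 2 h (0.59 and −3.27) and MRPL49 at 1 day (−0.09 to 4.65) are drawn far apart.

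Ratios of the members were weakly related to those of genes nearby in the genome. For the 75 members found in the marmoset gene table, the gene's ratio was set beside the median ratio of genes 10 to 30 positions from it in both directions. Pearson's r across these genes was 0.15, 0.35, 0.11 and 0.21 in time order, against 0.24, 0.24, 0.09 and 0.14 over 15312 genes. The points share the array and the vehicle sample, and genes are not independent replicates. Of the 38 members with the higher neighbours at 6 h, 24 lay above 0 with a median of 0.19, and of the others 18 of 37 with a median of −0.01. Subtracting the neighbours' level brought the 6 h median of the small subunit from 0.22 to 0.09. At 2 h the same step moved medians away from 0, from −0.07 to −0.16 for the members and from −0.09 to −0.18 for the large subunit. The part of the neighbourhood in the members' values was not tested.

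**Figure D4:**
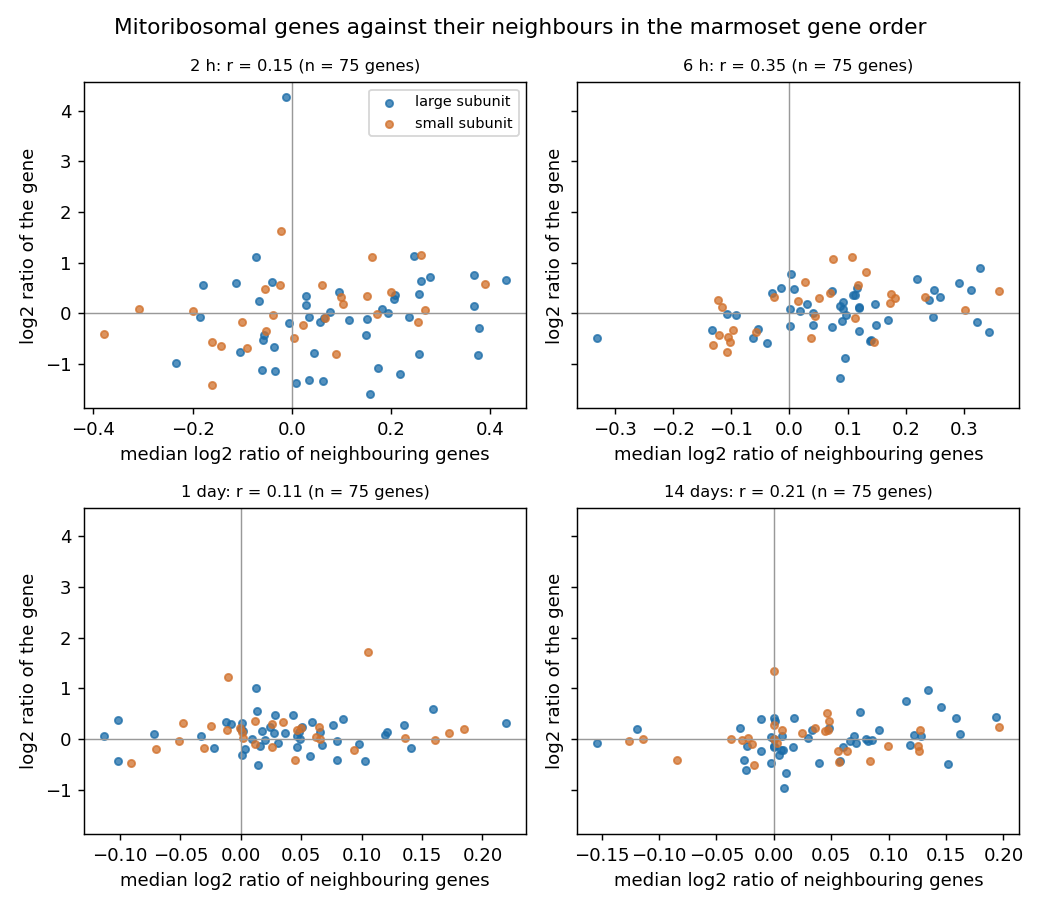
Log2 ratio of each of 75 members (vertical axis) against the median log2 ratio of neighbouring genes in the marmoset gene order (horizontal axis), with 1 panel per array, large subunit in blue and small in orange. The cloud tilts upward most at 6 h (r = 0.35), and at 1 day (r = 0.11) little tilt is seen.

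Members close to each other in the genome differed at 2 h. MRPL46 and MRPS11 are next to each other in the marmoset table and lay at −0.11 and 0.34 at 2 h, with smaller values than the gaps between their features. MRPS18A and MRPL14, with 2 coding genes between them, lay at 1.62 and −1.12 at 2 h. MRPL32 and MRPS24, 4 coding genes apart, lay at −1.59 and 0.18, and MRPL10 and MRPL45, 5 apart, at 0.42 and −1.09. In the 3 pairs with genes between them the 2 h values thus lay over 1.5 apart on the log2 scale.

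Longer genes lay lower by a small amount on 3 of the arrays. Spearman's rho between the span of the gene in the marmoset table and its ratio was −0.25, −0.32, −0.01 and −0.23 in time order over 75 members, and −0.19, −0.19, −0.11 and −0.15 over 15319 genes. At 2 h the 37 shorter members had a median of 0.02 and the 38 longer ones −0.30. The points share the samples and arrays, and the sign was the same over all genes.

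The 4 mitoribosomal proteins with other names ranged from −0.63 to 1.58 at 2 h, inside the members' range of −1.59 to 4.26. GADD45GIP1, a large-subunit protein also called CRIF1, lay at 1.58, 1.23, 0.52 and 0.62. DAP3, a GTP-binding protein of the small subunit, lay at 0.87, −0.03, 0.35 and 0.21. CHCHD1 lay at −0.63, −0.87, −0.15 and −0.36, and PTCD3, an RNA-binding repeat protein, at −0.19, −0.13, 0.04 and −0.08. Only GADD45GIP1 passed 2-fold, at 2 h and 6 h.

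Genes that assemble the mitoribosome had medians over 23 genes of 0.18, 0.22, −0.01 and −0.01. At 2 h, 1 of them was at least 2-fold higher and 1 lower, beside 5.47% and 7.22% of all genes. These were the ribosomal RNA methyltransferase MRM2 at 1.05 and MTERF3, needed for large-subunit assembly, at −1.69. MTERF3 lay at −0.82, −0.28 and −1.03 later. TFB1M, which methylates the small ribosomal RNA, lay at −3.59 at 1 day with 1 feature and between −0.24 and 0.01 at the other times.

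Translation factors of mitochondria had medians over 12 genes of −0.05, −0.27, −0.17 and −0.09. At 2 h, 3 of them were at least 2-fold lower and none higher, beside 7.22% and 5.47% of all genes. The initiation factor MTIF2 lay at −1.43, −0.88, −0.88 and −0.87, the elongation factor GFM1 at −1.32, −0.91, −0.18 and −0.69, and the initiation factor MTIF3 just past 2-fold lower at 2 h and at −0.97, −0.41 and −0.38 later. These 3 were picked by their 2 h values and had 1 feature each. All 3 were below 0 on each array, as were 18.5% of all genes. TUFM, the factor that brings aminoacyl-tRNA to the ribosome, lay at 0.22, 0.29, 0.14 and 0.14. MTRF1L, a release factor, lay at −1.27 at 1 day.

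The enzymes that charge mitochondrial tRNAs had medians over 21 genes of −0.07, 0.00, 0.05 and 0.12. SARS2 lay at 2.16, −0.09, 0.46 and 0.66 in time order, and EARS2 at 1.48, 1.06, 0.999 and 0.29. GARS1, which serves both cytosol and mitochondria, lay at −1.42, −1.61, −0.15 and −1.23. YARS2 lay at −1.19 at 6 h and RARS2 at −1.07 at 1 day. Genes of mitochondrial transcription and RNA processing had medians over 14 genes of −0.23, −0.10, −0.01 and −0.0038. Among them LRPPRC, which stabilises mitochondrial messages, lay at −1.21, −1.04, −0.42 and −0.65, and TRMT10C, of mitochondrial RNase P, at −1.20, −0.68, −0.40 and −0.18. TFB2M lay at −1.10 at 6 h, and the terminator MTERF1 at −1.08 at 14 days.

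At 2 h the members had a higher median than both related lists. The median at 2 h was −0.07 for the members, −0.16 for complex I and −0.41 for cytosolic ribosomal proteins. At least 2-fold lower at 2 h were 9 of 76 members, 4 of 36 complex I genes and 10 of 71 cytosolic ribosomal protein genes. Higher were 6, 5 and 3. Of all genes, 7.22% were lower and 5.47% higher on that array. No test of these differences was possible with 1 animal a time.

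Marker lists of cell types differed in how far their medians lay from vehicle. Erythrocyte markers had medians over 4 genes of 0.84, 0.44, 0.55 and 1.02, with values from 0.39 to 2.66 at 2 h. At 6 h they parted, with 2 above 0 and 2 below (53.2% and 46.8% of all genes). GABA neuron markers had medians over 5 genes of −0.26, −0.82, −0.63 and −0.78. At 2 h, 2 of the 5 lay above 0 (52.1% of all genes), and at 14 days all 5 lay below 0 (45.1%). Astrocyte markers had medians over 7 genes of −0.51, −0.37, −0.05 and 0.02. Dopamine neuron markers had medians over 9 genes of 0.00, 0.24, 0.27 and 0.17, with the dopamine transporter SLC6A3 listed as exactly 0 throughout. At least 2-fold higher were 1, 1, 2 and 0 of them in time order (5.47%, 3.37%, 2.27% and 2.16% of all genes). None was at least 2-fold lower (7.22%, 3.89%, 1.67% and 2.12% of all genes). Microglia markers had medians over 6 genes of 0.32, 0.13, −0.05 and 0.31, oligodendrocyte markers over 5 genes of −0.18, 0.17, −0.05 and 0.09, and endothelium and pericyte markers over 6 genes of −0.0048, 0.35, 0.08 and 0.52. At 2 h the single markers ranged from −0.76 to 1.76 for dopamine neurons, −1.60 to 0.18 for astrocytes, −0.66 to 2.01 for microglia and −2.18 to 0.35 for GABA neurons. The part of cell composition in the members' values was not tested.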

How the data were processed

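The deposited table held 1 value per feature for each of 4 two-colour arrays, read here as log10 ratios of Cy5 (MPTP) over Cy3 (vehicle), the dyes being given per the labels. Column medians were 0.00633, 0.000146, 0.000277 and 0, and no value passed 2 in size. Exact zeros made up 4.70% to 7.38% of an array and 5 of 428 values of the members. The authors' scanner software, background correction and normalization: not given in the sources used here. No intensities were used, so signal over background is unknown. With 1 array a time the number of arrays limits precision.

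The log10 values were converted to log2, centred on the median of all 43931 features of the array and summarised per gene by the median over features. Of the features, 29033 had 1 gene symbol in the platform annotation, and 97 had several and were left out. The marmoset RefSeq table (assembly calJac240_pri) named 75 of the 76 members and gave gene order and span only. Python 3.11.15, numpy 2.4.6 and pandas 2.3.3 were used. Scripts were tested on simulated data. Named were the members past 2-fold at each time, those farthest from 0 with agreeing features, those on one side on all arrays, those with the largest change from hours to days, and a short list of stalk, decoding and S18-family genes, of which MRPS36 was not analysed here. MRPL11, MRPL58 and a few others were added for their known roles after their values were seen. Members, lists and roles were chosen with earlier results of these data known. A planned description of protein composition was not run.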

Additional observations from a re-analysis of the deposited data

How the results depend on the processing

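Of 366 values recomputed under alternative settings, 331 stayed within 0.1 on the log2 scale or within 1.5 times the count, and 35 moved further. Of the 232 recomputed medians and differences, 19 changed sign, all from main values within 0.1 of 0. Of these, 17 stayed within 0.1 of the main value, among them large minus small at 1 day (−0.01, and 0.07 with the neighbours' level subtracted). The other 2 were the small-subunit median at 14 days and the change from 6 h to 1 day, both among genes with 2 or more features. With a 1.5-fold threshold, 12 members were higher and 19 lower at 2 h, 8 higher and 6 lower at 6 h, and 4 higher and 3 lower at 14 days. With a 3-fold threshold, 2 were higher and 1 lower at 2 h, 0 higher and 0 lower at 6 h, 1 higher at 1 day and 0 higher at 14 days. With all arrays scaled to one spread, 2 were higher and 1 lower at 2 h, and 2 higher and 1 lower at 14 days. The share of all genes was not computed for these thresholds or the scaled arrays. It was also not computed for the smaller set and the neighbour subtraction below. Counts under these settings can therefore not be read as particular to the members. Among the 25 members with 2 or more features, a smaller set by construction, 0 were higher at any time and 4 lower at 2 h, 8 lay above and 6 below 0 on all arrays, the small-subunit median was 0.33 at 6 h and 0.12 at 14 days, large minus small was −0.34 at 6 h, and the median change from 6 h to 1 day was −0.057. With the neighbours' level subtracted, 3 were higher at 2 h, the small-subunit median was 0.089 at 6 h and 0.016 at 1 day, and large minus small was −0.080 at 6 h. With proteins of other names included, the small-subunit median was 0.12 and large minus small −0.076 at 6 h, and with subunits taken by structure large minus small was −0.091 at 6 h. Without the 1 day array 26 members lay below 0 on the rest. Beyond the settings that change the set of genes, arrays or threshold, the cause was not tested. No paired analysis was possible because each time had 1 array and the vehicle sample was shared. The planned description of protein composition was not run, and unknown signal over background limits every ratio near 0.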

Other observations

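The antisense symbol MRPL20-AS1, which is no member, lay above vehicle on all 4 arrays, at 1.58, 0.75, 1.14 and 1.81 from 2 h to 14 days with 1 feature. The features of MRPL20 itself lay at −1.15 and −1.23 at 2 h and at 0.06 and 1.88 at 14 days. The pseudogene MRPL42P5 lay at −0.16, −0.42, −0.29 and −0.0031.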
